A study of Mus musculus with 8 samples.

Results

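The genes described here are Gm10800, Gm10801, Gm26870 and 6 neighbouring gene models that lie in satellite-type repeats of the mouse genome. They were chosen by position and selected on their counts: the rule took genes of the count table that GENCODE M21 (GRCm38) places on chromosome 2 between 98660000 and 98670000 or on chromosome 9 with a start below 3050000, and kept those with 10 or more counts in at least 1 library. The annotation holds 13 genes there, 12 of them are in the count table, and 9 met the minimum, out of 16816 genes that met it among all 43309. Of the 9 members, 2 are on chromosome 2 and 7 on chromosome 9. Just inside the minimum, Gm10718 reached 15 counts in its highest library, and just outside it Gm10721 reached 4, while Gm17535 and Gm10715 reached 3. Gm10722, Gm11168, Gm10719 and Gm10718 met the minimum only in the libraries labelled KO of 100 cells, so these 4 had to be higher there. Gm10800, Gm10801 and Gm26870 were picked with their KO to WT ratios already known, and those ratios are given as a description without a test.

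RNA of mouse embryonic stem (ES) cells, strain J1 (129SV), was sequenced in 8 libraries that form 4 groups of 2. The groups combine a Zbtb24 genotype, wild type (WT, 2lox/+) or knockout (KO, 1lox/1lox), with an input of 1000 cells (about 10 ng of RNA, 10 cycles of PCR) or 100 cells (about 1 ng, 18 cycles). In all groups the cells grew on gelatin without feeder cells and were lysed directly in the SMARTer Ultra Low kit, which primes on poly(A) tails, does not keep the strand and amplifies the cDNA. Replicates are described as clones of a genotype, which clone gave which library is not stated, and p-values therefore measure the spread between these libraries. Cell number and PCR cycles changed together and cannot be told apart.

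Mouse pericentromeres are built of major satellite DNA, long tandem arrays of an AT-rich unit, and are packed into constitutive heterochromatin that carries DNA methylation, trimethylated lysine 9 of histone H3 and HP1 proteins. Satellite arrays are transcribed at low levels, and their RNA can rise when this packing is disturbed. ZBTB24 is a zinc finger protein that activates Cdca7, and mutations of ZBTB24, CDCA7, HELLS or DNMT3B cause the human ICF syndrome, in which satellite DNA near the centromeres loses methylation. A few satellite copies outside the arrays or at the assembled edge of a chromosome carry predicted gene models, and the genes described here are such models, without a known function.

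The repeat is visible in the annotated transcripts themselves. Of the 28 transcripts of the 12 genes, GC content was 34.2% to 36.2%. When each transcript was shifted against itself by 150 to 300 bases, the share of identical bases was highest at a shift of 234 bases in 21 transcripts and within 3 bases of it in 27. In Gm26870-202, the most regular one, 95.9% of bases were identical at 234, against a median of 30.4% over all shifts. Gm10717-201 reached 64.9%. The chromosome 2 transcripts were less regular, with their highest identity at 225 bases for Gm10800-201 (56.3%) and at 231 for Gm10801-201 (52.7%).

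**Figure D1:**
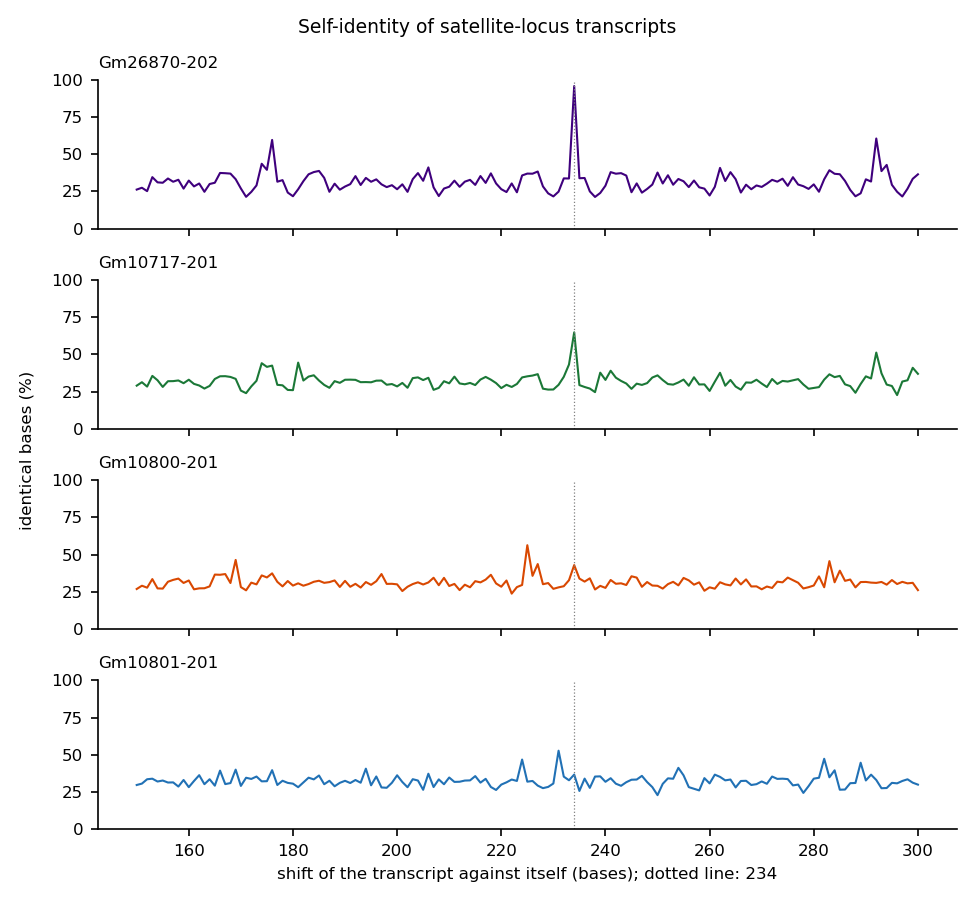
Share of identical bases (y axis, %) when 4 transcripts are shifted against themselves by 150 to 300 bases (x axis). Gm26870-202 has its highest peak, 95.9%, at the dotted line of 234 bases, and smaller ones at 176 (59.7%) and 292 bases (60.6%). Gm10717-201 is highest at the dotted line with 64.9%, and Gm10800-201 and Gm10801-201 have their highest peaks at 225 and 231 bases.

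The sequences below show how alike the members are, which bears on every count, since fragments mapped to several places were discarded. The sequences were read from the GENCODE M21 transcripts. The first is 1 unit of 234 bases from exon 1 of Gm26870, printed on the plus strand of chromosome 9 (chr9:3037745-3037978), so the Gm26870 RNA is its reverse complement. The others are exonic stretches of members, each aligned to that unit and printed in the direction of the transcript, with capitals for bases that differ from the unit or are inserted. All start at the first base of the unit except Gm10800, which starts at base 80 and runs on into the next unit. The stretches are exon 1 of Gm10801 (chr2:98662237-98662470, plus strand), exon 4 of Gm10800 (chr2:98666806-98667040, minus strand), exon 1 of Gm10717 (chr9:3025582-3025815, plus strand), exon 3 of Gm10720 (chr9:3016463-3016696, plus strand) and exon 2 of Gm11168 (chr9:3004623-3004856, plus strand).
Gm26870 unit: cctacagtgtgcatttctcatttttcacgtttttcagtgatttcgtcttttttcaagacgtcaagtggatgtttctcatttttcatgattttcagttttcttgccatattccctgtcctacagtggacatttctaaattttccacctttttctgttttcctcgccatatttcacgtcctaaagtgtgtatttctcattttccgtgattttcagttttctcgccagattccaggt
Gm10801: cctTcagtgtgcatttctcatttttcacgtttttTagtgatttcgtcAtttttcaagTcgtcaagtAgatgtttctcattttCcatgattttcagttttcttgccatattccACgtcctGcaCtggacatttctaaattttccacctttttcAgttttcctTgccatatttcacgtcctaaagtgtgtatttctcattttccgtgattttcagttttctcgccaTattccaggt
Gm10800: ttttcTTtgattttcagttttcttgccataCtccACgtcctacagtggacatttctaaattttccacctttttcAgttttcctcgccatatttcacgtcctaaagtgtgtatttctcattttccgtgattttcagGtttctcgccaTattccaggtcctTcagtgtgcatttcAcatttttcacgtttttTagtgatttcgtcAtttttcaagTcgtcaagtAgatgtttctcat
Gm10717: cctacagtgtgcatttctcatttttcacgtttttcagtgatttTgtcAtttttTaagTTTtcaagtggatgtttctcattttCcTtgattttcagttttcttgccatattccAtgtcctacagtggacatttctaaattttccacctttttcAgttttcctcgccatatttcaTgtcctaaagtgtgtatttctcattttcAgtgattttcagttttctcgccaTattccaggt
Gm10720: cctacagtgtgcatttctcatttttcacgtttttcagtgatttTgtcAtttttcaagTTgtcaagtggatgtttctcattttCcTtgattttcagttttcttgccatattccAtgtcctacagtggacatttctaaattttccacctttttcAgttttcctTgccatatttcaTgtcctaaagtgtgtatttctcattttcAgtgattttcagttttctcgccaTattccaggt
Gm11168: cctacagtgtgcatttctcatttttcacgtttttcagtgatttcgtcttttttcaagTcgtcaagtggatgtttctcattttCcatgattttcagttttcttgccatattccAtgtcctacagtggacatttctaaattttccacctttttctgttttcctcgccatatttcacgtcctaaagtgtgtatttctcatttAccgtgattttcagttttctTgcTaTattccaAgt

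Identity to the Gm26870 unit was 94.4% for Gm10801 and 94% for Gm10800, which has 1 inserted base. On chromosome 9 it ran from 93.2% (Gm10722) to 96.6% (Gm11168 and Gm10719). The chromosome 2 stretches were 96.6% identical to each other, and several of their differences from the unit fall at the same bases, as the capitals show. Gm10717 and Gm10720 were 98.7% identical. A stretch of Gm10715, which had at most 3 counts in any library, was 100% identical to the printed unit over all 234 bases and lies 702 bases, or 3 units, away from it.

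These likenesses differ between members over the length of a read. Of all distinct exonic windows of 76 bases, the read length, 2.56% in Gm10801 and 9.57% in Gm10800 also occurred, on either strand, in another GENCODE gene. The shares were 34.6% in Gm10717, 37.2% in Gm10722, 39.1% in Gm11168, 55.8% in Gm10719, 60% in Gm26870, 60.1% in Gm10718 and 78.7% in Gm10720. Matches were sought among annotated transcripts, so windows shared only with unannotated satellite copies were missed. Of the exonic bases of Gm26870, 54.6% overlap exons of genes on the opposite strand, as do 12.4% for Gm11168, 12.1% for Gm10719 and 22.8% for Gm10718. Without strand a fragment in such an overlap cannot be assigned. Each overlap is the same stretch of genome, yet its windows counted as shared, so for these genes the shares mix overlap with repeats. For the other members the shares are lower limits. Reads came in pairs, so a fragment with a shared read could still be placed by its mate, and the shares are not the uncountable part. No exon of Gm10800, Gm10801, Gm10717, Gm10720 or Gm10722 overlaps another gene of the loci. The counts therefore measure the uniquely mapped part of the repeat RNA, and a split among chromosome 9 members is uncertain.

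Totals ranged from 9666985 to 16686525 counts per library, and a count of 3 stood for 0.18 to 0.31 cpm (counts scaled to the library total). All 10 ES cell markers had more than 3 counts in every library. Zbtb24 itself (chromosome 10, 41450383 to 41465574, plus strand) had 244 and 201 counts in WT and 526 and 545 in KO at 1000 cells, and 197 and 269 in WT and 532 and 494 in KO at 100 cells. Its count was thus higher in all 4 libraries labelled KO, and because the count pools all exons, it cannot tell a shortened transcript from an intact one. Directions are therefore given for the libraries as labelled.

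The libraries labelled KO of 100 cells stand apart from the rest by markers of brain cells. Snap25, a synaptic vesicle fusion protein of neurons, had 1121 and 1021 counts there and 17 to 44 in the other 6 libraries. In the edgeR test of KO against WT at 100 cells, 9 of 12 neuronal markers were called higher and 1 lower. In the same test 7 of 7 tested myelin markers, 5 of 6 astrocyte markers, 1 of 2 tested fibroblast markers and 1 of 1 tested blood marker were called higher. At 1000 cells the test called 2 of the 12 neuronal markers higher and 4 lower, 1 of 7 myelin markers higher and 1 of 6 astrocyte markers higher. Of all tested genes, 20.9% were called higher and 20.6% lower at 1000 cells, and 19% and 15.2% at 100 cells. KO against WT at 1000 cells and the inputs within WT do not contain these 2 libraries. KO against WT at 100 cells, the inputs within KO, the interaction and the correlations over 8 libraries all rest on them.

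Gm10800 (ENSMUSG00000075014.1; chromosome 2, 98666547 to 98667301, minus strand, annotated as protein-coding, 660 exonic bases) carried most of the signal. Its counts were 621 and 394 in WT and 1211 and 1347 in KO at 1000 cells, and 233 and 411 in WT and 7167 and 7930 in KO at 100 cells. Both KO libraries were above both WT libraries at each input, and the KO libraries of 100 cells were far above the other 6. Scaled to the TMM-adjusted library size, the level at 1000 cells was 34.1 ± 2.62 cpm (SD, n = 2) for WT against 93.6 ± 0.601 cpm for KO. At 100 cells it was 27 ± 5.63 cpm for WT against 567 ± 45.5 cpm for KO. By count, Gm10800 stood at rank 4719 and 5010 of all genes in WT and at 2226 and 2254 in KO at 1000 cells, and at 6039 and 5102 in WT and at 284 and 248 in KO at 100 cells. It made up 79.2% to 84.9% of the counts of the 9 members in every library. The log2 ratio of KO to WT was 1.45 (SE 0.08) at 1000 cells and 4.38 (SE 0.16) at 100 cells.

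Gm10801 (ENSMUSG00000075015.3; chromosome 2, 98662237 to 98664083, plus strand, annotated as protein-coding) lies beside it on the opposite strand. Its counts were 50 and 18 in WT and 65 and 70 in KO at 1000 cells, and 13 and 26 in WT and 710 and 723 in KO at 100 cells. The KO libraries were higher than the WT libraries at each input, and the WT replicates of 1000 cells lay far apart. Its level was 2.18 ± 1 cpm (SD, n = 2) for WT against 4.94 ± 0.145 cpm for KO at 1000 cells, and 1.62 ± 0.478 cpm against 53.8 ± 1.17 cpm at 100 cells. The log2 ratios were 1.12 (SE 0.27) and 5.01 (SE 0.2), and the first became 1.74 without replicate 1 of WT and 0.77 without replicate 2.

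Gm26870 (ENSMUSG00000097312.1; chromosome 9, 3000282 to 3038313, minus strand, a lincRNA) spans the other chromosome 9 members on the opposite strand. Its counts were 62 and 40 in WT and 111 and 148 in KO at 1000 cells, and 20 and 45 in WT and 798 and 840 in KO at 100 cells. The groups did not overlap at either input. Its level was 3.43 ± 0.223 cpm (SD, n = 2) for WT against 9.43 ± 1.14 cpm for KO at 1000 cells, and 2.68 ± 1 cpm against 61.5 ± 2.78 cpm at 100 cells. The log2 ratios were 1.45 (SE 0.2) and 4.47 (SE 0.21).

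Gm10717 and Gm10720 are the remaining members that met the minimum outside the libraries labelled KO of 100 cells. Gm10717 (ENSMUSG00000095891.3; chromosome 9, 3025417 to 3033289, plus strand) had 12 and 2 counts in WT and 18 and 29 in KO at 1000 cells, and 4 and 8 in WT and 188 and 165 in KO at 100 cells. KO was above WT in every library at both inputs. Gm10720 (ENSMUSG00000074564.3; chromosome 9, 3015654 to 3017210, plus strand) had 16 and 3 counts in WT and 9 and 12 in KO at 1000 cells, and 3 and 9 in WT and 82 and 75 in KO at 100 cells. At 1000 cells its KO counts lay between those of the WT libraries.

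**Figure D2:**
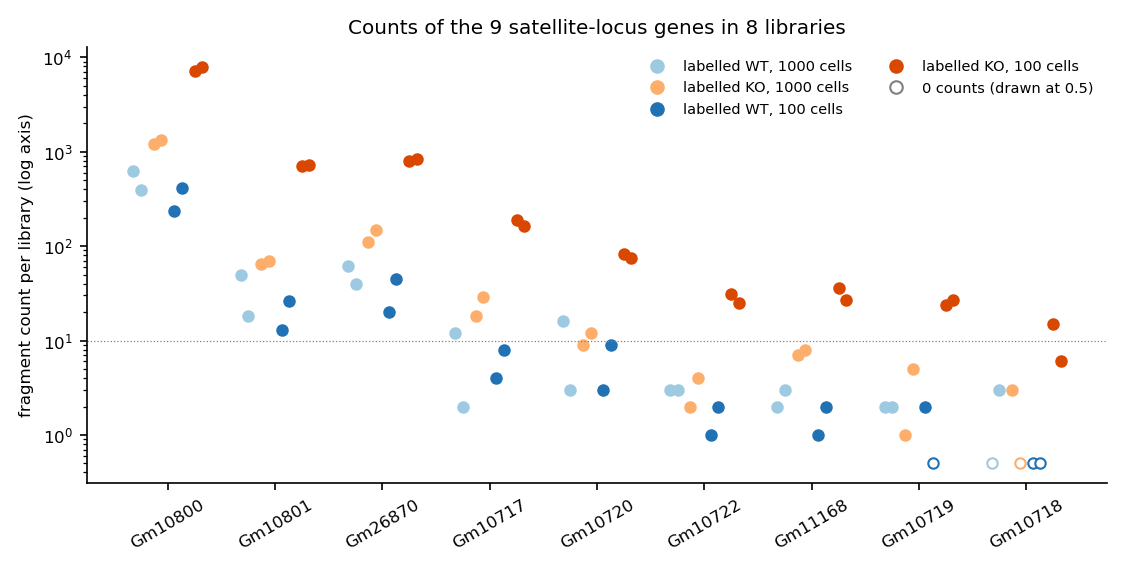
Fragment counts (y axis, log scale) of the 9 members in each of the 8 libraries, 1 point per library, coloured by labelled genotype and input. Open circles are libraries with 0 counts, drawn at 0.5, and the dotted line is the minimum of 10 counts. The libraries labelled KO of 100 cells are the highest for every member, from 6 and 15 counts for Gm10718 to 7167 and 7930 for Gm10800.

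Levels of different genes were compared per kilobase of exon, with the whole exon length in GENCODE M21 as the divisor. Shared and overlapping sequence cannot all be counted, and its share was 9.57% of windows in Gm10800, 60% in Gm26870 and 78.7% in Gm10720. The model of Gm10717 also differs from the one counted. The order below is therefore one of counted fragments per kilobase and may not be that of the RNA levels. In KO at 100 cells the mean level was 858 cpm per kb for Gm10800, 107 for Gm10801, 22.8 for Gm26870, 8.8 for Gm10720 and 3.43 for Gm10717. In WT at 1000 cells the order was the same, with 51.6, 4.33, 1.27, 0.875 and 0.111 cpm per kb. In that group the SD of Gm10720 (0.481 cpm around a mean of 0.585 cpm) was too wide to separate it from its neighbours in this order.

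KO was compared with WT to ask which of these genes differ between genotypes at each input. At 1000 cells edgeR's quasi-likelihood test, with p adjusted by Benjamini-Hochberg over the 16816 genes, called 4 of 9 members higher (Gm10800, Gm10801, Gm26870 and Gm10717) and 0 lower, while 20.9% of all tested genes were called higher and 20.6% lower. At 100 cells all 9 were called higher and 0 lower, against 19% and 15.2% of all genes. The members with an unadjusted p under 0.05 were also 4 and 9, where 8128 and 7569 of the 16816 genes were under it. Since 3 members were picked for this contrast and 4 passed the minimum only through its KO libraries, nothing is read from these counts. For Gm10717 the log2 ratio was 1.86 (SE 0.52, adjusted p = 0.00455) at 1000 cells and 4.67 (SE 0.31, adjusted p = 2.72e-05) at 100 cells. The value at 1000 cells became 3.32 without replicate 1 of WT and 1.29 without replicate 2. Its call there was lost with DESeq2 (adjusted p = 0.0529) and without replicate 2 of KO (log2 ratio 1.58, adjusted p = 0.0669), and its adjusted p over all alternatives ran from 0.000414 to 0.0669. For Gm10720 the log2 ratio was 0.29 (SE 0.61, adjusted p = 0.739) at 1000 cells and 3.51 (SE 0.4, adjusted p = 0.000346) at 100 cells. The counts of Gm10720 at 1000 cells, 21 in KO and 19 in WT, gave a ratio of 1.19 with an exact 95% interval of 0.611 to 2.35. Leaving out replicate 1 of WT moved its log2 ratio to 1.61 (adjusted p = 0.182), and leaving out replicate 2 moved it to −0.27 (adjusted p = 0.775). This interval and those below cover counting error only.

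The 4 members of lowest count gave 6 (Gm10722), 15 (Gm11168), 6 (Gm10719) and 3 (Gm10718) counts in both KO libraries of 1000 cells together, and 6, 5, 4 and 3 in WT. None passed the edgeR test at that input, with adjusted p between 0.131 and 0.978, and at an unadjusted p under 0.05 none passed either. The KO to WT ratio of Gm11168 was 3.24 with an exact interval of 1.12 to 11.4. At 100 cells they gave 56, 63, 51 and 21 counts in KO and 3, 3, 2 and 0 in WT. These KO libraries are the ones through which the 4 genes met the minimum, so the following ratios are a description of values that the rule used. They were 16.4 (exact interval 5.32 to 81.8) for Gm10722, 18.4 (6.02 to 91.7) for Gm11168 and 22.4 (5.88 to 190) for Gm10719. Gm10718 was at least 6.14-fold higher in KO, taking 3 counts over the WT group as the floor.

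The input was compared within each labelled genotype to ask how far these genes move with cell number and PCR cycles. Within WT, edgeR called 0 of 9 members in either direction (0 at an unadjusted p under 0.05), and 0.155% of all genes were called higher at 100 cells and 0.583% lower. DESeq2 gave an adjusted p for 1 member only, Gm10800, which it did not call (0.604). In edgeR Gm10800 had a log2 ratio of 100 to 1000 cells of −0.33 (SE 0.17, adjusted p = 0.444), Gm10801 −0.43 (SE 0.45, adjusted p = 0.766) and Gm26870 −0.33 (SE 0.35, adjusted p = 0.768). Without replicate 2 of WT at 100 cells, Gm10800 was called lower (−0.57, adjusted p = 0.00131). Gm10717 had 0.16 (SE 0.89) and Gm10720 −0.28 (SE 0.85).

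Within KO, all 9 members were called higher at 100 cells by edgeR and 0 lower, while 27.2% of all genes were called higher and 25% lower. Nothing is read from this count either, since Gm10722, Gm11168, Gm10719 and Gm10718 met the minimum only in those libraries. The comparison also shares them with the contrast that picked Gm10800, Gm10801 and Gm26870, and their log2 ratios of 2.6 (SE 0.06), 3.44 (SE 0.12) and 2.7 (SE 0.1) are a description. Gm10717 rose by 2.94 (SE 0.21, adjusted p = 1.67e-14) and Gm10720 by 2.92 (SE 0.29, adjusted p = 1.5e-10) on the log2 scale. Between the inputs, the summed level of the 9 members went from 41.3 ± 4.35 to 32.6 ± 7.46 cpm in WT (SD, n = 2) and from 112 ± 1.04 to 708 ± 47 cpm in KO. As a share of all counts, the members took 0.00287% to 0.0046% in WT libraries, 0.0109% in both KO libraries of 1000 cells, and 0.0658% (exact 95% interval 0.0644% to 0.0672%) and 0.0721% (0.0707% to 0.0735%) in the KO libraries of 100 cells.

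**Figure D3:**
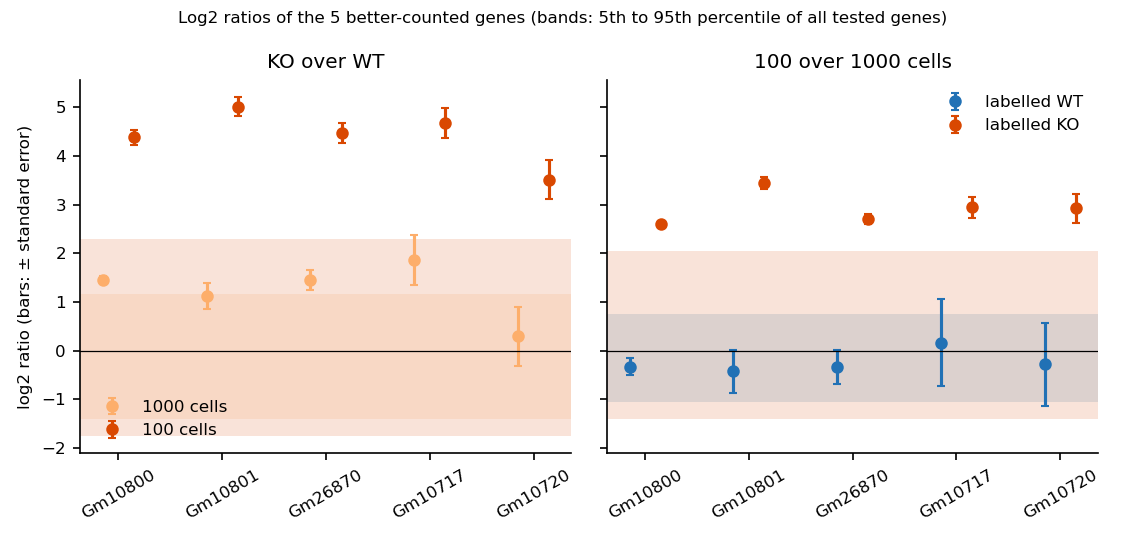
Log2 ratios (y axis) of the 5 better-counted members, KO over WT at both inputs (left) and 100 over 1000 cells in both labelled genotypes (right). Points are edgeR estimates, bars are ± 1 standard error, and bands run from the 5th to the 95th percentile of all tested genes. The KO over WT ratios at 100 cells lie between 3.51 and 5.01 and those at 1000 cells between 0.29 and 1.86, and within WT all 5 ratios of inputs lie between −0.43 and 0.16.

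Whether the ratio of KO to WT depended on the input was tested with an interaction term over all 8 libraries. It was called in 6 of 9 members with the larger ratio at 100 cells, and 9.28% of all genes were called in that direction and 7.05% in the other. Nothing is read from this count, since 3 of the 6 were picked by their KO to WT ratio and Gm10722 met the minimum only in KO at 100 cells, which leaves Gm10720 and Gm10717. Gm10800, Gm10801 and Gm26870 had values of 2.93 (SE 0.17), 3.89 (SE 0.37) and 3.02 (SE 0.29) on the log2 scale, given as a description. Gm10720 had 3.23 (SE 0.76, edgeR adjusted p = 0.0124) and Gm10717 2.82 (SE 0.71, edgeR adjusted p = 0.0168). Both calls depended on single libraries. Without replicate 1 of WT at 1000 cells, the value fell to 1.9 for Gm10720 (adjusted p = 0.313) and to 1.35 for Gm10717 (adjusted p = 0.545). Without either KO library of 100 cells, or for Gm10720 also without replicate 2 of KO at 1000 cells, the adjusted p lay between 0.0501 and 0.0582.

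The counts were then divided by those of Gm10800 in the same library, which removes the scaling. Gm26870 had 8.58 to 11.1 counts per 100 of Gm10800 in the 8 libraries, and in the group totals 10 (WT, 1000 cells), 10.1 (KO, 1000 cells), 10.1 (WT, 100 cells) and 10.8 (KO, 100 cells), with exact 95% intervals that all overlap. Both genes thus kept their proportion within counting error across groups whose levels lay far apart. Gm10801 had its highest proportions in the KO libraries of 100 cells, by intervals that leave out the spread between libraries. It had 9.91 (exact interval 9.16 to 10.7) and 9.12 (8.44 to 9.84) counts per 100 of Gm10800 in the KO libraries of 100 cells, and 5.37 (4.12 to 6.89) and 5.2 (4.03 to 6.61) in those of 1000 cells. The WT libraries had 8.05, 4.57, 5.58 and 6.33, with intervals that overlap those of KO at 100 cells in all but replicate 2 of 1000 cells. In the group totals Gm10801 had 9.49 (8.99 to 10) in KO at 100 cells, above 6.7 (5.16 to 8.57) in WT and 5.28 (4.41 to 6.28) in KO at 1000 cells and 6.06 (4.27 to 8.37) in WT at 100 cells, with no overlap of these counting intervals. Gm10717 had 2.34 per 100 in KO at 100 cells (2.1 to 2.6) and 1.38 to 1.86 in the other groups, with intervals that overlap it.

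**Figure D4:**
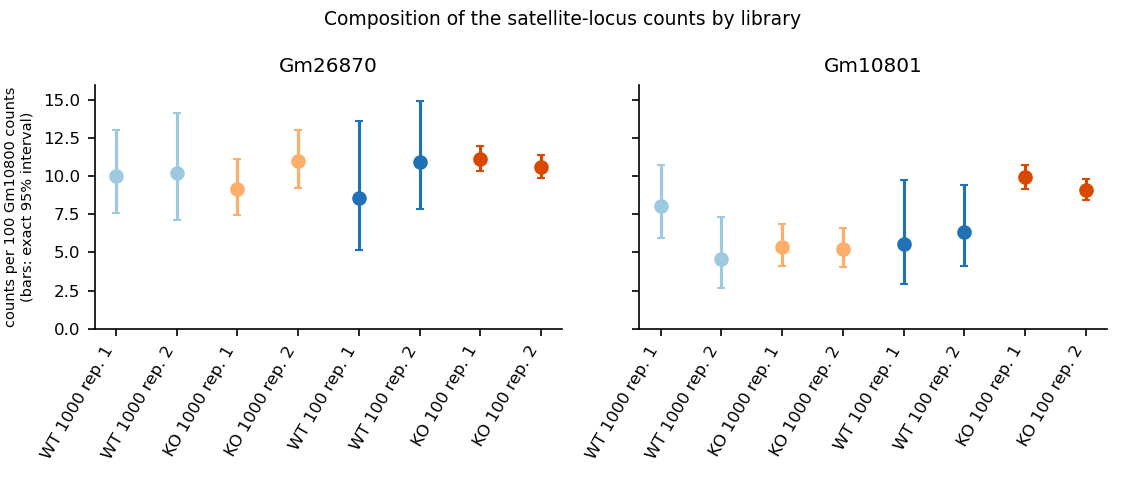
Counts of Gm26870 (left) and Gm10801 (right) per 100 counts of Gm10800 (y axis) in each library (x axis), with exact 95% intervals for counting error. Gm26870 lies between 8.58 and 11.1 throughout, and Gm10801 lies above 9 in both libraries labelled KO of 100 cells and between 4.57 and 8.05 in the other 6.

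Outside the loci, Gm21738 (ENSMUSG00000095280.1; chromosome 14, 19415857 to 19418930, minus strand) was the 1 tested gene that shared at least 5% of its exonic 50-base windows with the loci, at 40.2%. It was found by sequence and not by its counts. Its counts were 3 and 4 in WT and 13 and 13 in KO at 1000 cells, and 0 and 11 in WT and 65 and 83 in KO at 100 cells. KO was above WT at both inputs, with a wide spread in WT at 100 cells. The log2 ratio of KO to WT was 1.95 (SE 0.68, edgeR adjusted p = 0.0216) at 1000 cells and 3.56 (SE 0.61, edgeR adjusted p = 0.00248) at 100 cells. DESeq2 called neither (adjusted p = 0.134 and 0.151), and at 1000 cells the call was also lost in a fit of all 8 libraries (adjusted p = 0.0653) and without replicate 1 of WT or either KO replicate (0.068 to 0.149). Gm21738 had 0.69 to 1.71 counts per 100 of Gm10800 in the group totals, with overlapping exact intervals.

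The nearest genes outside the repeats were examined to ask whether the wider regions moved as well. Of 15 tested neighbours (10 on chromosome 2 and 5 on chromosome 9), edgeR called 4 higher and 2 lower in KO at 1000 cells and 2 higher and 4 lower at 100 cells. Of all genes, 20.9% and 20.6% were called higher and lower at 1000 cells, and 19% and 15.2% at 100 cells. Lrrc4c, which encodes a synaptic adhesion protein of neurons, had 40 and 31 counts in KO at 100 cells and 0 to 1 in every other library. Among the other 14, log2 ratios ran from −0.94 to 1.68 at 1000 cells and from −1.78 to 1.02 at 100 cells, with medians of −0.04 and −0.19. The highest at both inputs, 4930433N12Rik on chromosome 9, had 1.68 (SE 0.37, edgeR adjusted p = 0.000431) at 1000 cells and 1.02 (SE 0.46, adjusted p = 0.112) at 100 cells, so that at 1000 cells its ratio lay above those of Gm10800, Gm26870, Gm10801 and Gm10720.

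Genes that act on heterochromatin were read from the same tests. The list of 30 holds writers and readers of silencing marks, Zbtb24 itself, and enzymes that remove such marks (Kdm4a, Kdm4b, Kdm4c, Tet1 and Tet2). In KO at 1000 cells edgeR called 4 of the 30 higher and 15 lower, where 20.9% and 20.6% of all genes were called, with a median log2 ratio of −0.22 against 0.00 for all tested genes. Zbtb24 (1.37) and Kdm4b (0.52) are among the 4 higher calls, and Tet1 (−0.43) and Kdm4c (−0.39) among the 15 lower. At 100 cells 8 were called higher and 9 lower, against 19% and 15.2% of all genes, with a median of 0.00 against 0.04, and without either KO library at most 3 were called higher and 4 lower, while without either WT library at least 11 were called each way. Dnmt3b, a de novo DNA methyltransferase, fell by 2.17 on the log2 scale at 1000 cells (SE 0.08, adjusted p = 5.97e-19) and by 1.29 at 100 cells (SE 0.1, adjusted p = 6.43e-05). Cdca7, the partner of the remodeler HELLS, fell by 1.74 (SE 0.07, adjusted p = 2.09e-17) and by 1.41 (SE 0.11, adjusted p = 5.01e-05). Suv39h1, which methylates lysine 9 of histone H3 at pericentromeres, rose by 0.89 (SE 0.11, adjusted p = 2.23e-07) and by 0.93 (SE 0.15, adjusted p = 0.00159).

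Satellite RNA is also known from the rare 2-cell-like state of ES cell cultures, marked by Zscan4 and related multicopy genes. The list of 25 used here also holds genes outside these families, among them Dppa2 and Dppa4. Of the 25, 23 were in the table and 12 were tested. Of these, edgeR called 0 higher and 11 lower in KO at 1000 cells, and 0 higher and 3 lower at 100 cells. The 3 were Dppa2, Dppa4 and Zscan4d, and Dppa2 and Dppa4 were also among the 11. Over all tested genes, 20.9% were called higher and 20.6% lower at 1000 cells, and 19% and 15.2% at 100 cells. With genes at 0 in a group set to their bound, the median log2 ratio was −3.30 at 1000 cells over 12 genes and −1.39 at 100 cells over 9. None was called higher under any alternative. The 11 lower calls at 1000 cells became 2 without replicate 2 of WT, and DESeq2 called 3 of the 9 genes to which it gave an adjusted p. Dppa4 fell by 0.63 (SE 0.06, adjusted p = 4.29e-09) and by 1.04 (SE 0.1, adjusted p = 0.000188), and the Zscan4 and Usp17l counts are uncertain because these copies are near-identical. Chemosensory receptor genes, which ES cells do not use, had 7 of 1318 tested, of which 1 was called higher and 2 lower at each input, with summed levels of 15.3 to 23.8 cpm in all libraries.

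Across the 8 libraries, the genes outside the loci whose log2 level was most like the summed level of the members were Trim37 (Pearson's r = 0.9968), Ank3 (0.9949), Atp2b2 (0.9944), Scg5 (0.9924) and Notch4 (0.9914), out of 13665 compared. The points share their libraries and depth, and the 2 KO libraries of 100 cells lead the range, so many genes come close: 236 had a coefficient above 0.95. Trim37 moved little in size, from 102 ± 1.02 cpm (SD, n = 2) in WT to 112 ± 0.00374 cpm in KO at 1000 cells and from 99.2 ± 4.91 to 135 ± 0.562 cpm at 100 cells. Atp2b2, a calcium pump, went from 0.116 ± 0.164 to 1.48 ± 0.448 cpm and from 0.0754 ± 0.107 to 12.7 ± 3.14 cpm. Scg5, a secretory granule protein of neuroendocrine cells, went from 0.291 ± 0.166 to 1.21 ± 0.0469 cpm and from 0.113 ± 0.16 to 13.7 ± 0.249 cpm.

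The cell type markers moved with the members at 100 cells. The summed myelin markers had 42.9 to 53.6 cpm in the WT libraries, 49.2 to 52.3 cpm for KO at 1000 cells and 259 to 267 cpm for KO at 100 cells, and Cldn11 was at 0 in every library outside KO at 100 cells. The astrocyte markers had 73.9 to 88.9 cpm in WT, 137 to 153 cpm for KO at 1000 cells and 208 to 216 cpm for KO at 100 cells, with Aqp4 at 0 in both groups of 1000 cells and S100b at 0 in KO of 1000 and WT of 100 cells. The neuronal markers had 500 to 538 cpm in WT, 406 to 417 cpm for KO at 1000 cells and 554 to 572 cpm for KO at 100 cells, with none at 0 throughout a group. This sum hides opposite moves of its genes. At 100 cells Snap25 alone went from 1.78 and 2.04 cpm in WT to 83.6 and 77.1 cpm in KO. Stmn2 was called lower in KO by edgeR at both inputs (log2 ratios −0.31 and −0.42). The median log2 ratio of the 12 was 0.06 at 1000 cells and 1.99 at 100 cells. The fibroblast markers had 0.395 to 1.1 cpm in WT, 0.484 to 0.776 cpm for KO at 1000 cells and 2.46 to 2.72 cpm for KO at 100 cells, with Col3a1 and Lum at 0 outside the last group. The blood markers reached 0.151 cpm in WT, 0.208 cpm for KO at 1000 cells and 2.27 cpm for KO at 100 cells, with Hbb-bs and Hbb-bt at 0 outside the last group. Their part in the levels of the satellite-locus genes was not tested, and in bulk RNA more cells that carry a transcript and more RNA per cell cannot be told apart. At 1000 cells the myelin sum was 42.9 to 44.4 cpm in the WT libraries of that input and 49.2 to 52.3 cpm in KO, and Mobp, a myelin protein gene, was called higher (log2 ratio 1.48, SE 0.15, edgeR adjusted p = 4.77e-09). The astrocyte sum of KO was also above WT at that input, and the neuronal sum was below it. Of the 6 astrocyte markers edgeR called only Aldoc there (log2 ratio 1.09, SE 0.10), and Gfap and S100b had negative ratios. The blood sum rested on 1 and 1 counts in WT and 2 and 3 in KO, too few to compare.

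**Figure D5:**
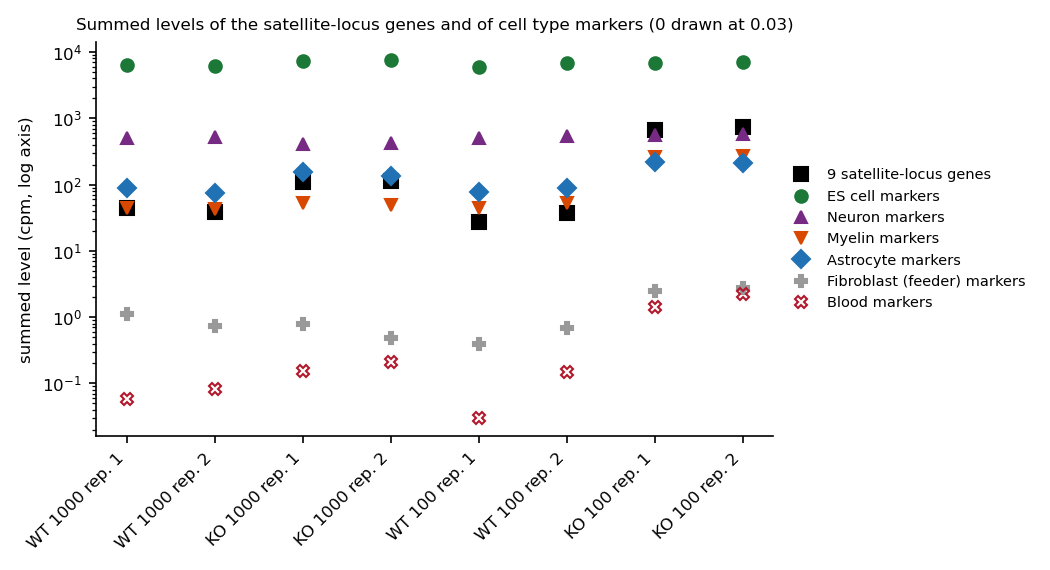
Summed levels (y axis, cpm, log scale) of the 9 members and of 6 cell type marker lists in each library (x axis), with a level of 0 drawn at 0.03. The members rise to 708 cpm on average in the libraries labelled KO of 100 cells, where myelin, astrocyte, fibroblast and blood markers are also highest, while ES cell markers lie between 5840 and 7469 cpm throughout.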

How the data were processed

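RNA from 8 libraries of mouse ES cells was read from 1 table of raw fragment counts per gene, deposited by the authors. Per the labels and the study's methods, reads matching ribosomal RNA were removed with Bowtie2 2.1.0, the rest mapped to mm10 with TopHat2 2.0.10 and fragments counted over GENCODE M4 genes with HTSeq 0.6.1 in union mode without strand. Fragments matching several places or genes were discarded, so repeat copies lose counts, and removal of PCR duplicates is not stated. Groups came from the labels.

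Genes with 10 or more counts in at least 1 library (16816) were tested with the quasi-likelihood test of edgeR 4.0.16 in R 4.3.3, with TMM scaling over 8 libraries, Benjamini-Hochberg adjustment and a threshold of 0.05. KO against WT and the ratio of inputs used the 4 libraries compared, and the interaction all 8. Tests are two-sided. The code was tested on simulated data. Levels are CPM on the TMM-adjusted library size. Shares and count ratios have exact (Clopper-Pearson) 95% intervals, and the floor of a group at 0 was 3 counts over the group. PCR copies are not independent molecules, so both cover counting error only. Likeness was Pearson's r over the 8 libraries on log2(cpm + 0.5), for genes averaging 1 cpm or more.

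Positions and sequences came from GENCODE M21 (GRCm38), in which 42425 of 43309 identifiers (97.96%) were found without their version. Gm10717 and Gm11168 carry another version there than in the table, so their models differ from those counted. Shared windows were planned against the whole genome and were sought among the M21 transcripts only. No genome or protein sequence was used here.

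Genes were named by a rule: all members, the 5 genes most like their sum, tested genes sharing at least 5% of their 50-base windows with the loci, the 5 nearest tested genes on each side, and lists of silencing, 2-cell-like, chemosensory and cell type marker genes by counts with up to 3 examples each. Snap25, Lrrc4c and 4930433N12Rik were singled out after their values were seen. The members and lists were chosen with earlier results of these data known. Alternatives were DESeq2 1.42.0, other scalings and filters, a log2 ratio above 1, 1 fit of all 8 libraries, a replicate block and each replicate left out.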

Additional observations from a re-analysis of the deposited data

Results flagged for a closer look

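The interaction of genotype and input was past the threshold for 2 members that were not picked by their KO to WT ratio. The log2 value was 3.23 for Gm10720 and 2.82 for Gm10717, with the larger KO to WT ratio at 100 cells in each. Both calls depended on single libraries. Without replicate 1 of WT at 1000 cells the values were 1.9 (edgeR adjusted p = 0.313) and 1.35 (adjusted p = 0.545), and both calls were also lost without either KO library of 100 cells. Gm10720 had 9 and 12 counts in KO at 1000 cells and 82 and 75 at 100 cells, and in WT 16 and 3 and then 3 and 9. Gm10717 had 18 and 29 and then 188 and 165 counts in KO, and 12 and 2 and then 4 and 8 in WT. Both members are near-identical in sequence over the printed stretch (98.7%), so they are not independent of each other.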

How the results depend on the processing

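With 10 or more counts required in every library, only the better-counted members could be tested, and the calls were 3 for KO against WT at 100 cells, 4 for the inputs within KO and 3 for the interaction. Leaving out 1 library at a time gave 3 to 4 calls for KO against WT at 1000 cells, 8 to 9 at 100 cells, 0 to 1 for the inputs within WT, 8 to 9 within KO, and 3 to 7 for the interaction, with 3 without replicate 1 of WT at 1000 cells or without either KO library of 100 cells. No direction of a called value reversed. Of the single-gene values, 638 kept their side of the threshold, 33 lost the call and 4 gained it. Library size alone moved the summed level in KO at 1000 cells to 109 cpm, and changed the calls over all genes at 1000 cells from 3514 higher and 3466 lower to 2778 and 4288. Over all genes, calls of KO against WT at 100 cells were 1639 higher and 1085 lower with a log2 ratio above 1. In 1 fit of all 8 libraries they were 3997 and 3336. For the inputs within WT the same 2 settings gave 6 and 24, and 241 and 435. Leaving out 1 library moved the calls of both comparisons further in each direction. Windows of 50 bases raised the shared share to 17.1% in Gm10801, 27.4% in Gm10800, 46.4% in Gm10717, 53.6% in Gm11168, 63% in Gm10722, 67% in Gm26870, 68.4% in Gm10719, 74.9% in Gm10718 and 88.3% in Gm10720, since shorter windows match more often. Replicate numbers are shared between groups, but same-numbered libraries deviated together by only 0.154 and 0.17 (Pearson's r over 8365 genes, KO with WT at 1000 and 100 cells), −0.124 (inputs within WT) and −0.0381 (within KO), with fewer than 3 pairs. The replicate block gave 4, 9, 0, 9 and 5 calls in the 5 comparisons, against 4, 9, 0, 9 and 6. Crossing the numbers within WT, an alternative chosen after seeing the data, left 0 calls. With 2 libraries a group and under 20 counts in WT, the 6 lesser chromosome 9 members limit what could be detected.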
